A study of Mus musculus with 8 samples.

Results

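The T cell markers were 8 genes chosen by name, Cd3d, Cd3e, Cd3g, Cd4, Cd8a, Cd5, Il2rb and Il7r, out of 15859 genes in the count table of distal colon. All 8 were in the table, and all 8 were among the 14371 genes that passed the filter on low counts and were tested. The samples were polyA RNA from the distal colon of 8 male mice on a BALB/c x 129SvEV background, with 2 mice in each of 4 groups. The 2 groups at day 0 were untreated WT and Hsf1 null mice. The 2 groups at day 15 were WT and Hsf1 null mice given 10 mg/kg azoxymethane (AOM, a colon carcinogen) intraperitoneally at 8 weeks of age followed from day 7 by 5 days of drinking water with 1.5% dextran sulfate sodium (DSS), an agent that damages the gut lining. The sample labels gave an age of 10 weeks for all mice, and the series text 9.5 weeks. The labels named the treated groups day 15, while their protocol text reads as if the mice were killed directly after the 5 days of DSS. The study's own text places day 15 some days after the DSS ended. The null allele was not limited to a cell type by a Cre or other driver, and the study's methods call the WT mice littermates.

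T cells recognise peptides through an antigen receptor that carries no signalling tail of its own. The receptor is assembled with the CD3 chains, which pass the signal inward, while CD4 or CD8 binds the presenting MHC molecule and brings the kinase LCK to the complex. T cells in the colon lie among the epithelial cells, in the lamina propria and in lymphoid follicles, and they depend on the cytokines IL-2, IL-7 and IL-15 for growth and survival.

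The library labels held for the targeted gene. Hsf1 was at 36.5 to 50.5 CPM (read counts relative to the TMM-scaled library total) in the 4 WT mice and at 9.09 to 14 CPM in the 4 null mice, with no overlap. Total counts ranged from 2553348 to 12440257 per mouse. The second WT mouse and the second null mouse at day 0 had the smallest libraries, 2553348 and 2675976 counts, and only 45 and 44 of those counts came from the 8 markers. In these 2 mice, 1 count of a gene stood for 0.397 and 0.359 CPM, so the day 0 level of each marker rested on few counts. The edgeR and DESeq2 p-values below rest on the spread between 2 mice per group. That spread was estimated in 1 model over the 4 groups, with information shared over genes.

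T cell marker RNA was scarce in the untreated colon, and its summed level was higher at day 15 in both genotypes. The 8 markers summed to 51.2 and 17.9 CPM in untreated WT mice, against 98.7 and 168 CPM after AOM-DSS. The sum in the null mice was 17.7 and 15.8 CPM without treatment, against 45 and 77.7 CPM with it. The first WT mouse at day 0 stood above the other 3 untreated mice and also above the first null mouse at day 15. Both day 15 WT mice lay above all other mice. In bulk tissue a larger number of T cells and more of these transcripts per T cell cannot be told apart. All 8 genes were detected in each genotype at both times, with 1 exception: Cd5 had 0 counts in the second WT mouse at day 0, which allows up to 1.19 CPM there (3 counts).

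**Figure D1:**
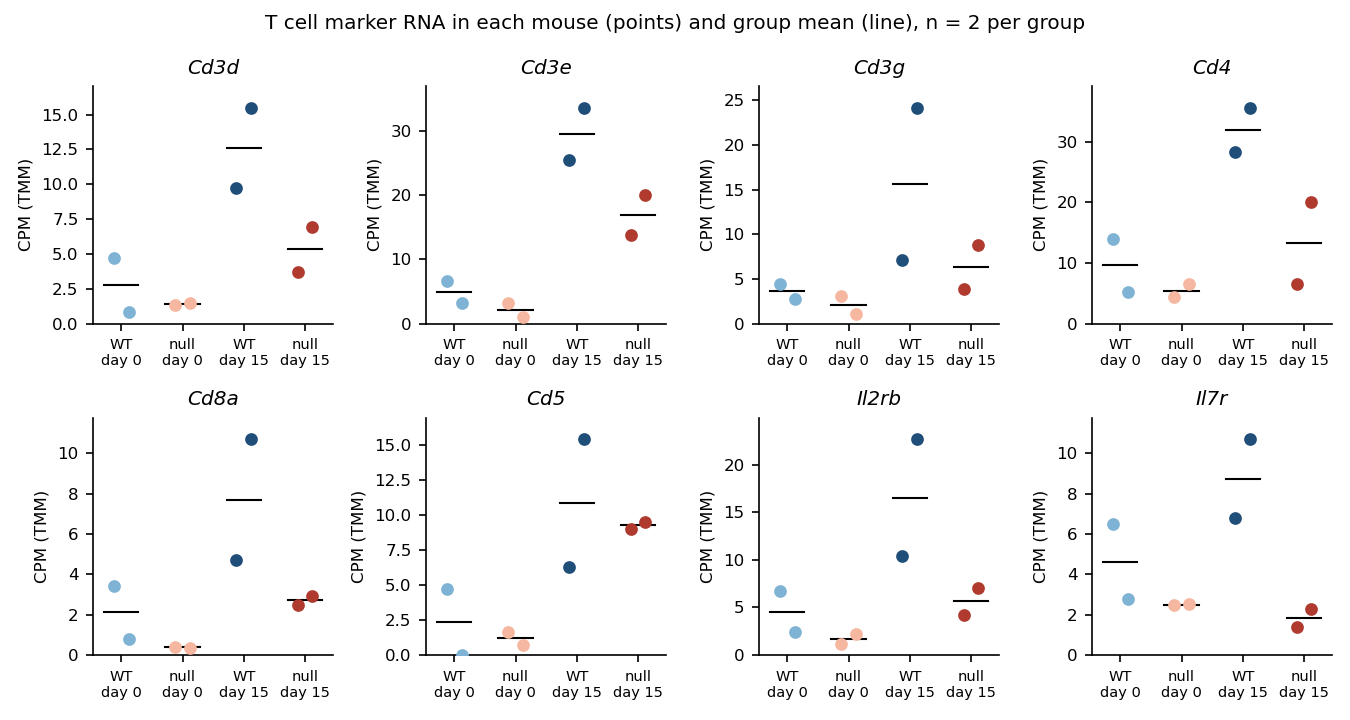
Level of each T cell marker in CPM (TMM-scaled, linear axis from 0, a separate scale per gene) in the 4 groups; each point is 1 mouse and each line the mean of 2 mice. The day 15 WT mice lie above the day 0 WT mice for all 8 genes, and Il7r is the only gene whose 2 day 15 null mice lie below the 2 day 0 null mice.

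The 3 CD3 genes, the signalling chains of the T cell receptor, lie together on chromosome 9 of the mm10 genome. Cd3g occupies bases 44969572 to 44980431 on the minus strand, Cd3d bases 44981786 to 44987339 on the plus strand and Cd3e bases 44998740 to 45009627 on the minus strand. Cd3g and Cd3d are transcribed away from each other from starts 1355 bases apart, and the start of Cd3e lies 27841 bases from that of Cd3d. Because the 3 genes share a locus and a cell type, they do not count as separate evidence. The stretch just before each start, from RefSeq on GRCm38.p6, is shown 5′ to 3′ because these neighbours were all higher at day 15 in every treated pair. The capitals mark the ETS core AGGAAG and the TCF core CTTTGA on either strand.
Cd3g (chr9:44980432-44980681, minus strand): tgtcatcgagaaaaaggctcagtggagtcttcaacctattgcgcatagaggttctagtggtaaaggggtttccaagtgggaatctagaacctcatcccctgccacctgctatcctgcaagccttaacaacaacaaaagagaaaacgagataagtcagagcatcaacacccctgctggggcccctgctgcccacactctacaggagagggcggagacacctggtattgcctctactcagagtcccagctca
Cd3d (chr9:44981536-44981785, plus strand): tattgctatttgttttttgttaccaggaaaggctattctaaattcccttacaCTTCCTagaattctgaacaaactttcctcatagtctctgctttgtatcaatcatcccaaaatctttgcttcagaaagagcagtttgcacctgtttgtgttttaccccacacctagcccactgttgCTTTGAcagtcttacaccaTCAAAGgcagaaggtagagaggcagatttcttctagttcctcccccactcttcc
Cd3e (chr9:45009612-45009861, minus strand): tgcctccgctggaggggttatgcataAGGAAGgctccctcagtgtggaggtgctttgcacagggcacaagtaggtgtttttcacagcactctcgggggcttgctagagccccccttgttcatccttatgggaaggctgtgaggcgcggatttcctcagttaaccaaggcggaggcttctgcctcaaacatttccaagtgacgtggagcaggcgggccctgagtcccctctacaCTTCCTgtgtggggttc
The RefSeq start of Cd3e lies inside the longer gene model used for the coordinates above. The ETS letters were found in 4 of the 6 markers with a promoter entry (Cd3d, Cd3e, Cd5 and Il7r) and in 29.5% of 32851 mouse promoters. The TCF letters were found in 1 of the 6, Cd3d, in 2 copies, and in 13.8% of all promoters. No copy of the RUNX core TGTGGT was found in the 6 windows, against 14% of all promoters, nor of the heat shock element letters GAANNTTC, against 6.69%. The E-box CANNTG was in all 6, and in 66.2% of all promoters. These matches describe letters only. Cd4 and Il2rb had no entry.

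Cd3e, the chain that the T cell receptor complex needs for its assembly at the surface, rose from day 0 to day 15 in both genotypes. Its level was 6.66 and 3.18 CPM in the day 0 WT mice and 25.5 and 33.7 CPM in the day 15 WT mice. In Hsf1 null mice it was 3.28 and 1.08 CPM at day 0 and 13.8 and 20.1 CPM at day 15. All 4 treated mice lay above all 4 untreated mice. In WT the rise was 5.61-fold (log2 fold change 2.49 ± 0.50, SE, n = 2 against 2; adjusted p = 0.0201, edgeR's quasi-likelihood test with Benjamini-Hochberg adjustment). In Hsf1 null mice it was 6.73-fold (log2 2.75 ± 0.52; edgeR adjusted p = 0.0171). Calls needed both an adjusted p below 0.05 and a change of more than 1 log2 unit in size. Cd3e was the only one of the 8 markers that edgeR called in either comparison. Neither call held without certain single mice, while the log2 fold change stayed at 2.15 or above in the fits given here. Calls over all genes also fell in some fits with mice left out, as given at the end. In WT the adjusted p became 0.131 without the second day 0 WT mouse and 0.105 without the second day 15 WT mouse, with log2 fold changes of 2.16 and 2.28. In Hsf1 null mice it became 0.142 without the second day 0 null mouse and 0.0563 without the second day 15 null mouse, at 2.36 and 2.45. With both small libraries left out, the values were 2.15 in WT and 2.33 in null, with adjusted p of 0.14 and 0.218. The 2 comparisons share no samples, but both come from 1 model in which the groups share an estimate of the spread.

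Cd3d, whose chain pairs with CD3E, was at 4.70 and 0.794 CPM in the day 0 WT mice, 1.31 and 1.44 CPM in the day 0 null mice, 9.74 and 15.5 CPM in the day 15 WT mice and 3.72 and 6.95 CPM in the day 15 null mice. Cd3g, which pairs with CD3E in a second dimer, was at 4.41 and 2.78 CPM, 3.04 and 1.08 CPM, 7.13 and 24.2 CPM, and 3.88 and 8.83 CPM in the same order. For both genes the treated mice lay above the untreated mice of their genotype, and the second day 15 WT mouse was the highest of the 8. The WT change from day 0 to day 15 was 1.99 ± 0.65 for Cd3d and 2.05 ± 0.70 for Cd3g on the log2 scale, with edgeR adjusted p of 0.0841 and 0.0957. In Hsf1 null mice the change was 1.97 ± 0.72 and 1.46 ± 0.72, with adjusted p of 0.0929 and 0.193. Neither gene passed edgeR's test in either genotype, while DESeq2 called Cd3d in both (adjusted p of 0.0315 in WT and 0.0494 in null) and Cd3g in WT (0.0288).

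Cd4 marks helper and regulatory T cells and is also made by some macrophages and innate lymphoid cells, while Cd8a marks cytotoxic T cells and many intraepithelial lymphocytes. Both lie on chromosome 6, Cd8a at bases 71373427 to 71379173 on the plus strand and Cd4 at 124864692 to 124888221 on the minus strand. Cd4 was at 14 and 5.16 CPM in the day 0 WT mice, 4.35 and 6.47 CPM in the day 0 null mice, 28.2 and 35.6 CPM in the day 15 WT mice and 6.51 and 20.1 CPM in the day 15 null mice. The first day 15 null mouse was thus level with the second untreated null mouse, at 42 and 18 counts. Cd8a was at 3.43 and 0.794 CPM, 0.411 and 0.359 CPM, 4.70 and 10.7 CPM, and 2.48 and 2.94 CPM in the same order. The 2 day 0 null mice held 5 and 1 Cd8a counts, fewer than any other pair.

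The change of Cd4 from day 0 to day 15 was 1.65 ± 0.57 (log2, SE) in WT and 1.36 ± 0.60 in Hsf1 null mice, with edgeR adjusted p of 0.0964 and 0.149. That of Cd8a was 1.66 ± 0.67 in WT and 2.73 ± 0.85 in null, with adjusted p of 0.142 and 0.0605. The number of Cd4 counts per Cd8a count was 4.09 and 6.50 in day 0 WT, 10.6 and 18 in day 0 null, 6 and 3.34 in day 15 WT and 2.62 and 6.82 in day 15 null mice. The ratio was highest in the untreated null mice, and the other 3 groups overlapped. Permuting days within genotype, the mean log2 difference of the ratio between day 15 and day 0 was -0.74 (exact permutation test, two-sided p = 0.222, 36 arrangements, smallest p 0.0556; 0.444 after Benjamini-Hochberg adjustment over 10 ratio tests). Between WT and null within days the difference was -0.56 (exact p = 0.333, adjusted 0.476).

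Cd5 encodes a scavenger receptor family protein that dampens T cell receptor signalling and is also carried by B-1 cells. It lies on chromosome 19 at bases 10717116 to 10739002, minus strand. Its level was 4.70 and 0 CPM in day 0 WT, 1.64 and 0.719 CPM in day 0 null, 6.26 and 15.4 CPM in day 15 WT and 9.00 and 9.50 CPM in day 15 null mice. Cd5 was the one marker for which the day 15 null mice lay between the 2 day 15 WT mice. The change with treatment was 1.90 ± 0.85 in WT and 2.78 ± 0.94 in null on the log2 scale, with edgeR adjusted p of 0.182 and 0.0743. The WT value mixes a mouse at 48 counts with one at 0. Without that first mouse the untreated WT group is at 0 counts, so its fitted change is no estimate of size.

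Il2rb encodes the receptor chain shared by IL-2 and IL-15 and is found on memory and intraepithelial T cells and on NK cells. It lies on chromosome 15 at bases 78479256 to 78495271, minus strand, 1.98 Mb from Hsf1. Its level was 6.76 and 2.38 CPM in day 0 WT, 1.15 and 2.16 CPM in day 0 null, 10.4 and 22.7 CPM in day 15 WT and 4.19 and 7.09 CPM in day 15 null mice. Each treated pair lay above the untreated pair of its genotype. The change was 1.74 ± 0.60 in WT and 1.92 ± 0.69 in null mice (log2, SE), with edgeR adjusted p of 0.096 and 0.088. Ncr1, an activating receptor that defines NK cells, was at 1.59 to 3.43 CPM in the 4 untreated mice and 0.522 to 1.34 CPM in the 4 treated mice, on 4 to 35 counts, and was not called (log2 -1.76 in WT and -1.13 in null, edgeR adjusted p of 0.162 and 0.341). Of 10 NK cell genes 4 passed the filter, and the list summed to 34.1 to 71.8 CPM in untreated mice, 97.4 and 254 CPM in day 15 WT and 33.5 and 53.9 CPM in day 15 null mice, nearly all of it Tyrobp, an adaptor that myeloid cells also make. The other tested NK genes, Klrk1 and Klrd1, had log2 fold changes of 0.34 and 0.40 in WT and -1.94 and -0.29 in null without a call, and Tyrobp was called in WT at 1.78 and stood at 0.52 in null (difference not called, adjusted p = 0.621). Klrb1c, another defining NK receptor, had 0 to 8 counts in each mouse. The part of NK cells in Il2rb was not tested.

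Il7r, the IL-7 receptor chain that naive and memory T cells carry and effector T cells largely lose, was the only one of the 8 with a negative log2 fold change in any of the 4 pairwise comparisons. It lies on chromosome 15 at bases 9505788 to 9530176, minus strand, 66.95 Mb from Hsf1. Its level was 6.47 and 2.78 CPM in day 0 WT, 2.46 and 2.52 CPM in day 0 null, 6.79 and 10.7 CPM in day 15 WT and 1.40 and 2.27 CPM in day 15 null mice. The 4 WT mice lay above the 4 null mice, and the treated null mice were the lowest of all. The nearest WT and null mice, at 2.78 and 2.52 CPM, had 7 counts each. The change from day 0 to day 15 was 0.83 ± 0.54 in WT and -0.43 ± 0.60 in null on the log2 scale, with edgeR adjusted p of 0.344 and 0.662, so neither was called. The difference between the 2 changes was 1.25 (95% interval -0.54 to 3.05, edgeR interaction adjusted p = 0.694).

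Relative to Cd3e, Il7r was lower in all treated mice than in any untreated mouse. There were 0.971 and 0.875 Il7r counts per Cd3e count in day 0 WT and 0.750 and 2.33 in day 0 null mice, against 0.266 and 0.317 in day 15 WT and 0.101 and 0.113 in day 15 null mice. The highest ratio came from 7 and 3 counts, with a 95% exact counting interval of 0.533 to 14, whereas the first day 15 null mouse gave 0.0448 to 0.201 from 9 and 89 counts. The second day 0 WT mouse, with 7 and 8 counts, gave 0.27 to 2.76, which overlaps the treated WT intervals of 0.205 to 0.343 and 0.251 to 0.397, so counting error alone does not separate it from them. The intervals cover counting error only. The mean log2 ratio was 0.12 in the untreated and -2.47 in the treated mice, a difference of -2.59 (exact permutation within genotype, two-sided p = 0.0556, the smallest that 36 arrangements allow, and 0.278 after adjustment over 10 ratio tests). The Il2rb to Cd3e ratio had the same exact permutation p of 0.0556 at a difference of -1.02, but its groups overlapped. The Cd3g to Cd3e ratio differed by -1.1 (exact p = 0.111, adjusted 0.37), and Cd3e made up 30% to 47.1% of the counts of the 3 CD3 chains in untreated and 45.9% to 64.5% in treated mice, so the choice of Cd3e as denominator bears on the size of the Il7r difference. With Cd3d in its place, taken after seeing the data, the ratio of Il7r was 1.38 to 3.5 in untreated and 0.327 to 0.696 in treated mice. With Cd3g the ranges overlapped, at 0.811 to 2.33 and 0.258 to 0.951. Innate lymphoid cells also carry Il7r. Of 7 tested genes of these cells none was called higher with treatment, 2 were called lower in WT and 1 in null, beside 4.27% and 6.48% of all genes. In WT 4 of the 7 had positive values, with a median log2 of 0.46, and in null 3 of the 7, with a median of -0.19, while the list summed to 168 to 298 CPM in untreated and 104 to 179 CPM in treated mice. The part of these cells in Il7r was not tested.

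**Figure D2:**
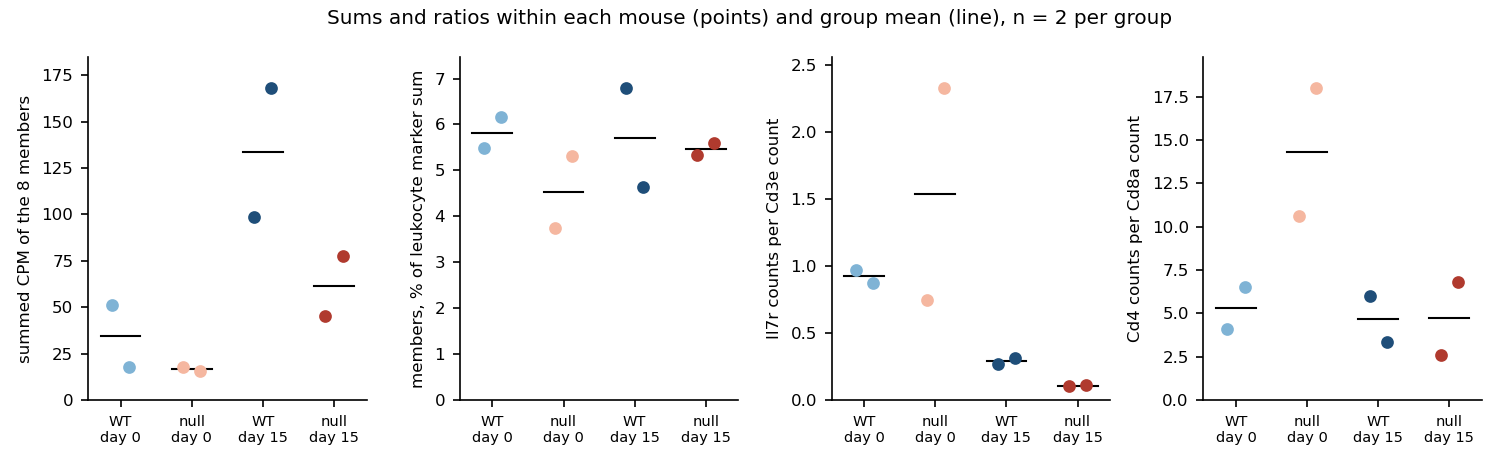
From left to right, summed CPM of the 8 markers, that sum as a percentage of the summed CPM of 12 leukocyte genes, Il7r counts per Cd3e count and Cd4 counts per Cd8a count, on linear axes from 0; points are mice and lines means of 2 mice. The Il7r to Cd3e ratio is 0.750 to 2.33 in untreated and 0.101 to 0.317 in treated mice, while the percentage of the leukocyte sum stays between 3.74 and 6.79 in all 8 mice.

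Across the 8 markers, the day 15 and day 0 groups did not overlap for any gene, though some nearest mice were close. These were Il7r in WT (6.79 against 6.47 CPM) and, in null, Cd4 (6.51 against 6.47 CPM) and Il7r (2.27 against 2.46 CPM). In WT all 8 were higher at day 15, against 31% of all tested genes that were higher without overlap, and 1 was called higher and none lower, against 3.47% and 4.27% of all genes. The median log2 fold change of the 8 was 1.82, and that of all tested genes 0.00. In Hsf1 null mice 7 were higher and 1, Il7r, was lower without overlap, against 31% and 30.3% of all genes, and 1 was called higher and none lower, against 5.3% and 6.48%. The median of the 8 was 1.94, beside 0.05 for all genes. An unadjusted p under 0.05 was reached by 6 of the 8 in each genotype, against 27.6% and 32.6% of all genes. DESeq2, the study's tool, called 5 of the 8 in each genotype, where it called 12.8% of all genes in WT and 17% in null. In WT these were Cd3d, Cd3e, Cd3g, Cd4 and Il2rb, and in null Cd3d, Cd3e, Cd8a, Cd5 and Il2rb. The WT median was 3.0 without the first day 0 WT mouse, the high one, 1.26 without the second, and 1.1 without the second day 15 WT mouse.

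The comparison of WT with Hsf1 null mice asks whether loss of HSF1 goes with less T cell RNA. At day 15 all 8 markers had a positive log2 fold change of WT over null, from 0.23 for Cd5 to 2.23 for Il7r, but none was called by edgeR, against 3.17% of all genes. The median of the 8 was 1.27, beside 0.03 for all tested genes. The WT mice lay above the null mice without overlap for 6 of the 8 and below them for none, against 28.6% and 26.3% of all genes, and Cd3g and Cd5 were the 2 that overlapped. An unadjusted p under 0.05 was found for 4 of the 8, Cd4, Cd8a, Il2rb and Il7r, beside 23.2% of all genes. Without the second day 15 WT mouse the median was 0.83, and without the first day 15 null mouse it was 0.83 as well.

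Il7r was nearest to a call at day 15, at 4.69-fold (log2 2.23 ± 0.57, SE; edgeR adjusted p = 0.0631). DESeq2 called it, with an adjusted p of 0.0192, and called 8.93% of all genes. The edgeR adjusted p was 0.285 without the second day 15 WT mouse and 0.294 without the first day 15 null mouse. Il2rb differed 2.92-fold (log2 1.55 ± 0.58; edgeR adjusted p = 0.153), Cd8a 2.81-fold (1.49 ± 0.65; 0.206) and Cd4 2.39-fold (1.26 ± 0.55; 0.208). The 3 CD3 chains stood at 1.23 ± 0.62 for Cd3d, 0.80 ± 0.45 for Cd3e and 1.29 ± 0.66 for Cd3g, with adjusted p of 0.261, 0.315 and 0.271. For Cd5 the value was 0.23, with a 95% interval of -1.54 to 1.99, and it was -0.06 after thinning to the smallest library and -0.56 without the second day 15 WT mouse.

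At day 0 the 8 markers again had positive log2 fold changes of WT over null, with a median of 1.08 beside 0.01 for all genes. None was called by edgeR or by DESeq2, which called 0% and 0.136% of all genes. An unadjusted p under 0.05 was found for 2 of the 8, Cd8a and Il2rb, both higher in WT. Over all genes it was found for 6.29%, and with the higher value in WT for 3.93%. The groups did not overlap for 3 of the 8, Cd8a, Il2rb and Il7r, each higher in WT. The gaps between the nearest mice were narrow and rested on few counts. They were 0.794 against 0.411 CPM for Cd8a (2 and 5 counts), 2.38 against 2.16 CPM for Il2rb (6 and 6) and 2.78 against 2.52 CPM for Il7r (7 and 7). Of all genes 18.4% were higher in WT without overlap, the direction of these 3 markers, and 18.7% were lower. Only both directions together make about the same share as among the markers. Cd8a was 5.87-fold higher in WT in the fit (log2 2.55 ± 0.86; edgeR adjusted p = 0.775) on 35, 2, 5 and 1 counts, and Il2rb 3.30-fold (1.72 ± 0.69; 0.775). These values leaned on the first day 0 WT mouse. Without it the log2 fold changes of Cd8a and Il2rb were 0.97 and 0.68, the median of the 8 was 0.21, and Cd3d, Cd4 and Cd5 changed sign. In that mouse the summed level of 10 B cell genes was 312 CPM, against 61.5, 168 and 28.4 CPM in the other untreated mice, and that of 12 leukocyte genes was 931 CPM, against 290, 472 and 298 CPM. The part of these cells in its T cell RNA was not tested.

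No difference between the genotypes in their change from day 0 to day 15 was called for any of the 8 by edgeR, or by DESeq2 for the 6 to which it gave an adjusted p (not Cd8a and Il7r), where it called 1.15% of all genes, and none had an unadjusted p under 0.05, beside 8.62% of all genes (3.58% with a larger change in WT and 5.04% with a smaller one). The median difference was -0.08, with 4 genes above 0 and 4 below, and 0.00696% of all tested genes were called. For Cd3e, the most deeply counted of the receptor chains, the difference was -0.26 with a 95% interval of -1.80 to 1.28, wide enough to hold a several-fold difference either way. Adjusted p ran from 0.694 to 0.999. The day 15 comparison of genotypes, the 2 comparisons of days and this difference share mice, so they are not independent of each other.

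**Figure D3:**
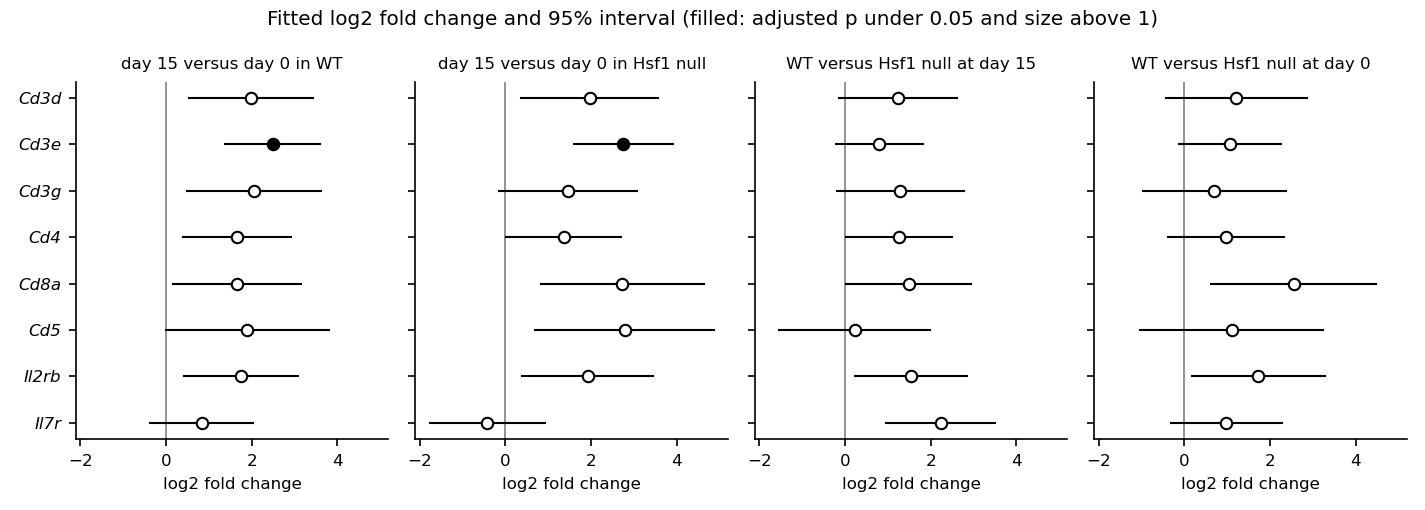
Fitted log2 fold change (x axis) of each T cell marker in 4 comparisons, with 95% intervals from edgeR's quasi-likelihood test on 2 mice per group; filled circles are called. Only Cd3e is filled, at 2.49 in WT and 2.75 in Hsf1 null mice, and in the 2 comparisons of genotypes all 16 values are above 0 with no call.

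Levels of different genes were set beside each other only per kilobase of exon. At day 15 in WT the order of mean CPM per kb was Cd4 (7.91 ± 1.30, SD, n = 2), Cd3e (7.25 ± 1.42), Cd3d (6.98 ± 2.26), Cd3g (4.79 ± 3.69), Il2rb (3.86 ± 2.02), Cd5 (2.20 ± 1.31), Cd8a (2.11 ± 1.16) and Il7r (1.87 ± 0.589). Each gene's range overlapped that of the next in this order. At day 15 in Hsf1 null mice Cd3e came first at 4.15 ± 1.08 and Il7r last at 0.394 ± 0.133, and the ranges of Cd5, Il2rb, Cd8a and Il7r, in falling order, did not overlap. At day 0 Cd4 led in both genotypes, at 2.38 ± 1.55 in WT and 1.34 ± 0.371 in null, and in null it lay apart from the next gene, Cd3d at 0.760 ± 0.0483. Il7r stood at place 5 of the 8 in day 0 null mice, at 0.534 ± 0.00788, and at place 6 in day 0 WT mice, at 0.992 ± 0.560, and came last at day 15 in both genotypes.

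Among themselves, Cd8a and Il2rb had the most similar profiles over the 8 mice, with a root mean square difference of 0.248 SD units between their standardised log2 CPM. Il7r and Cd5 were the most unlike pair, at 1.105, and stood farthest from the mean profile of the 8, at 0.715 and 0.61. Cd3d was nearest to that mean, at 0.188. Among the 10 genes outside the list nearest to the mean profile, of 14371 tested, were Smn1 (0.096), Spn (0.123), Asns, 5031439G07Rik, Dok2, Pik3cd, Gpr65, Plekhg2 and Laptm5 (0.168). Spn encodes CD43 of T cells and other leukocytes, Dok2 an adaptor of blood cells, Pik3cd the leukocyte PI3-kinase subunit and Laptm5 a leukocyte lysosomal protein. Smn1 and Asns are expressed in most cells, and the range of Smn1 was only 16.2 to 26.2 CPM. All these points share libraries and depth.

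Beyond the 8 markers, 123 other genes of T cell biology were examined in 7 lists, of which 111 were in the table and 99 were tested. From day 0 to day 15 in WT, 14 were called higher and 3 lower, 17.2% of the 99 beside 7.74% of all genes. In Hsf1 null mice 6 were called higher and none lower, 6.06% beside 11.8%. The day 0 groups differ in these 2 counts, and the difference in change was called for none of the 99. Between WT and null at day 15, 7 were called higher in WT and 1 lower, 8.08% beside 3.17% of all genes, and at day 0 none.

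Among receptor and surface genes, 12 of 16 were tested, and the constant regions of the receptor itself (Trac, Trbc1, Trbc2 and Trdc) were not analysed here. The 12 tested genes had positive values for WT over null at day 15, with a median log2 of 2.05 beside 0.03 for all genes. Ptpn22, a phosphatase that restrains receptor signalling in T and B cells, was the 1 called higher in WT, beside 1.25% of all genes. It was at 48.9 and 58.7 CPM in day 15 WT and 7.91 and 8.43 CPM in day 15 null mice, and was 6.57-fold higher in WT (log2 2.72 ± 0.57; edgeR adjusted p = 0.0379). Untreated WT mice held 16.4 and 6.35 CPM, untreated null mice 8.79 and 1.80 CPM, and it rose in WT by 2.17 ± 0.56 (adjusted p = 0.0438). The CD8 beta chain gene Cd8b1 held 32 and 89 counts in day 15 WT and 4 and 3 in day 15 null mice, without a call.

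In the receptor signalling list, 19 of 20 were tested and 19 of 19 had positive values for the change in each genotype, with a median of 1.72 in WT and 1.18 in null (1.17 with Ubash3a, absent from untreated null mice, at its lower bound). Lat, the adaptor that gathers signalling proteins at the membrane, rose in both genotypes, from 4.41 and 1.59 to 15 and 26.7 CPM in WT (log2 2.65 ± 0.61; edgeR adjusted p = 0.032) and from 1.81 and 0.359 to 5.74 and 8.56 CPM in null (2.4 ± 0.66; 0.0424). The kinase gene Zap70, which binds phosphorylated CD3 chains, rose in WT by 2.43 ± 0.60 (adjusted p = 0.0368), and so did the exchange factor gene Vav1, by 1.95 ± 0.39 (0.0205). In null mice these stood at 2.0 ± 0.63 (0.0616) and 1.21 ± 0.39 (0.0657). The adaptor gene Grap2 rose in null mice by 2.46 ± 0.60 (0.03) and stood at 1.84 ± 0.53 (0.0596) in WT. The difference between the genotypes was not called for Zap70 (0.43), Vav1 (0.75) or Grap2 (-0.61). Ubash3a, a phosphatase of the receptor pathway, had 0 counts in both untreated null mice and 6 and 15 in the treated ones, and was called at least 2.22-fold higher against a floor of 3 counts per library. None of the 19 was called between the genotypes at day 15, beside 3.17% of all genes. Their 19 values were positive there, with a median of 1.28 beside 0.03 for all genes.

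Of 15 tested transcription factors, Foxp3, which defines regulatory T cells, rose in WT from 1.67 and 0.794 to 7.31 and 12.1 CPM (log2 2.81 ± 0.75; edgeR adjusted p = 0.0485). It was at 1.31 and 0 CPM in untreated and 4.19 and 5.35 CPM in treated null mice. Batf, a factor of activated T and B cells, rose in WT by 2.98 ± 0.67 (adjusted p = 0.0295). At day 15, 3 of the 15 factors were called higher in WT than in null and none lower, beside 1.25% and 1.91% of all genes. Of the 15, 11 had positive and 4 negative values. Without overlap, 9 were higher and 2 lower in WT, beside 28.6% and 26.3% of all genes. Tcf7, a factor of naive and memory T cells, was at 20.8 and 40.6 against 5.89 and 8.83 CPM (log2 2.05 ± 0.41; 0.0328). Runx3, a factor of CD8 T cells, differed by 2.17 ± 0.45 (0.0374) and Ets1, a factor of most lymphocytes, by 1.89 ± 0.41 (0.0403). Tcf7 was at 15.1 and 12.3 CPM in untreated WT mice. The untreated null mice, at 10.8 and 10.1 CPM, lay above the treated null mice.

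In the costimulation and checkpoint list, 16 of 17 were tested. Icos, an inducible costimulatory receptor, rose in both genotypes, by 2.55 ± 0.58 in WT (edgeR adjusted p = 0.0301) and 2.27 ± 0.66 in null (0.0483). Ctla4, an inhibitory receptor of activated and regulatory T cells, rose in WT by 2.36 ± 0.62 (0.0454) and was at 7.13 and 11.7 CPM in day 15 WT against 2.02 and 0.936 CPM in day 15 null mice (log2 2.67 ± 0.61; 0.0476). Effector genes were thinly counted, and only 3 of 18 passed the filter, Gzmb, Nkg7 and Ccl5, without a call. Ifng had 0, 1, 1 and 0 counts in the untreated mice, 4 and 27 in day 15 WT and 2 and 2 in day 15 null mice. Il17a had 12 and 4 counts in day 15 WT and 0 in each of the other 6 mice.

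In the IL-2 and IL-7 receptor list, 16 of 17 were tested. Il2rg, the gamma chain that pairs with the products of both Il2rb and Il7r, rose in WT by 2.27 ± 0.56 (edgeR adjusted p = 0.0378). Jak3, the kinase bound to that chain, rose in both genotypes, from 21.8 and 20.2 to 90.1 and 96.0 CPM in WT (2.14 ± 0.33; 0.00908) and from 14.9 and 8.27 to 38.2 and 57.4 CPM in null (1.99 ± 0.33; 0.0138). Il4ra, which shares the gamma chain, rose in WT by 2.14 ± 0.50 (0.0327). Il15, the cytokine read by Il2rb, went the other way. It was at 10.8 and 10.7 CPM in untreated WT, 19.2 and 20.5 CPM in untreated null, 3.65 and 4.22 CPM in treated WT and 11.6 and 10.6 CPM in treated null mice. It fell in WT by 1.45 on the log2 scale (SE 0.35, adjusted p = 0.0365) and was lower in WT than in null at day 15 (log2 -1.49, SE 0.35, 0.0497). Il7 was at 7.15 to 14 CPM in untreated and 6.23 to 10.9 CPM in treated mice and was not called. Stat5b, which carries the signal to the nucleus in most cell types, was higher in WT at day 15 by 1.12 ± 0.23 (0.0365).

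In the homing list, 18 of 19 were tested. Itgb7, the integrin chain that brings lymphocytes to the gut, rose in both genotypes, from 9.41 and 6.35 to 24.4 and 36.5 CPM in WT (log2 1.91 ± 0.41; edgeR adjusted p = 0.0265) and from 5.09 and 2.52 to 17.5 and 23.0 CPM in null (2.30 ± 0.43; 0.0167). Madcam1, the vessel ligand of that integrin, rose in WT by 3.44 ± 0.72 (0.0245), and Ccr7, which guides naive T cells and dendritic cells into lymphoid tissue, by 1.98 ± 0.40 (0.0207). The epithelial chemokine gene Ccl28 fell in WT by 1.82 (SE 0.35, 0.0177). S1pr1, which lets lymphocytes leave tissue and is also an endothelial gene, was at 45.0 and 46.6 CPM in day 15 WT and 8.84 and 17.8 CPM in day 15 null mice (1.78 ± 0.40; 0.046).

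**Figure D4:**
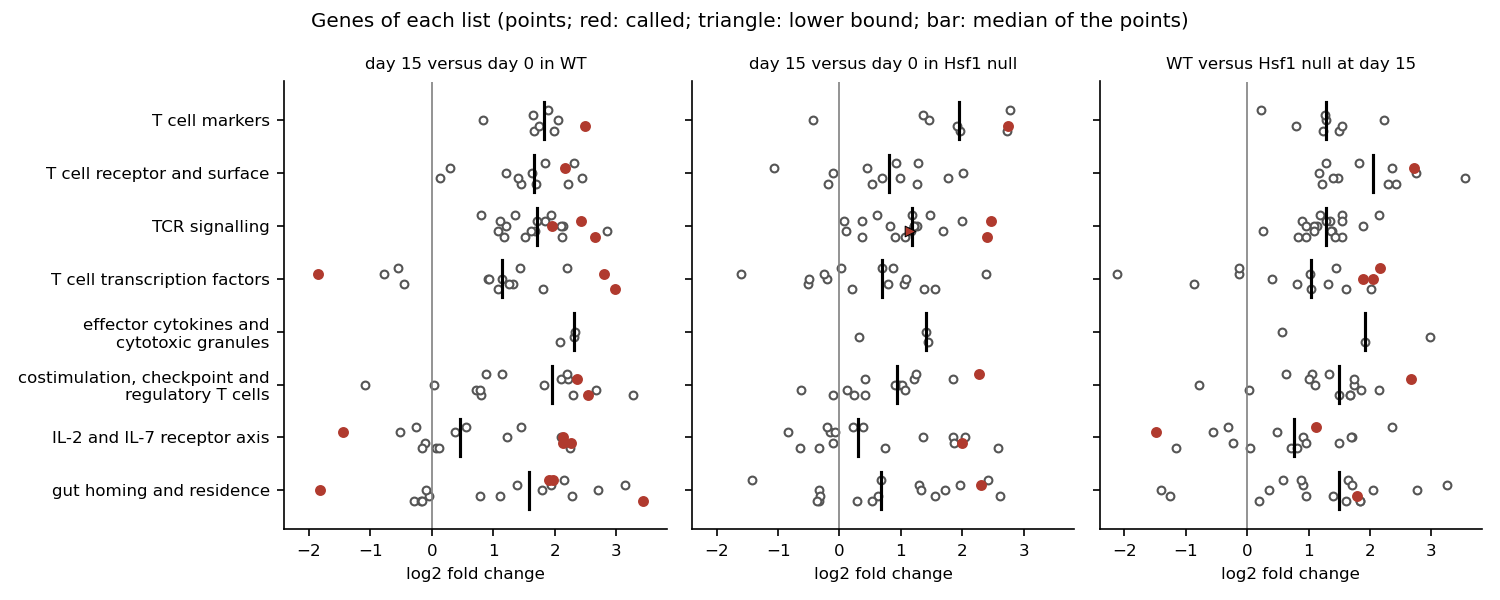
Fitted log2 fold change (x axis) of the tested genes of each T cell list (rows) in 3 comparisons; red points are called, the triangle is the lower bound of Ubash3a, which had 0 counts in untreated null mice, and the bars are medians of the round points. Uncalled genes with 3 counts or fewer in each mouse of a compared group are left out. The red points include Lat, Icos, Jak3 and Itgb7 in both treatment comparisons and Ptpn22, Tcf7, Runx3, Ets1, Ctla4, Stat5b and S1pr1 in the genotype comparison at day 15.

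RNA of other cell types also differed between the same groups. The 8 T cell markers made up 3.74% to 6.79% of the summed CPM of 12 leukocyte genes in the 8 mice, at 5.49% and 6.16% in day 0 WT, 3.74% and 5.31% in day 0 null, 6.79% and 4.63% in day 15 WT and 5.33% and 5.59% in day 15 null mice. The share overlapped between WT and null at day 15 and between the days in WT, and the untreated null mice lay below both the untreated WT and the treated null mice. The leukocyte sum itself was 290 to 931 CPM in untreated mice, 1454 and 3636 CPM in day 15 WT and 844 and 1390 CPM in day 15 null mice. Of the 12 leukocyte genes, 4 were called higher with treatment in WT and 1 in null, beside 3.47% and 5.3% of all genes. The 10 B cell genes had positive values in each comparison of days, with medians of 2.12 in WT and 1.78 in null and no call by edgeR. Their sum was 28.4 to 312 CPM in untreated and 310 to 1266 CPM in treated mice. Lymphoid follicle genes had medians of 2.4 in WT and 1.6 in null for the same change, and Ltb, a lymphotoxin of lymphocytes, rose in both (log2 2.67 ± 0.56 and 2.49 ± 0.57; edgeR adjusted p of 0.0245 and 0.0257). Cxcl13, the chemokine that draws B cells into follicles, rose in WT from 65.5 and 18.3 to 421 and 397 CPM (log2 3.24 ± 0.58; 0.0145) and was at 56.8 and 30.2 CPM in untreated and 19.5 and 45.1 CPM in treated null mice (-0.45 ± 0.55; 0.605), with the difference between the changes not called (3.69, adjusted p = 0.294). At day 15, 2 of the 7 follicle genes were called higher in WT, beside 1.25% of all genes. They were Cxcl13 (3.66 ± 0.59; 0.021) and Tnfsf11, which had 34 and 98 counts in WT and 2 and 3 in null. Neutrophil genes were higher in WT at day 15, with 5 of 8 called beside 1.25% of all genes and a summed level of 140 and 553 CPM against 6.82 and 25.8 CPM in null. Smooth muscle genes fell with treatment in WT, 6 of 8 called, from 7207 and 9860 to 3678 and 2128 CPM, and 1 of 8 was called lower in null, beside 4.27% and 6.48% of all genes. At day 15, 5 of 8 plasma cell genes and 3 of 12 macrophage genes were called higher in WT, again beside 1.25% of all genes, and no dendritic cell, fibroblast, fat, smooth muscle or epithelial gene was called between the genotypes. Epithelial genes summed to 11924 and 15282 CPM in day 15 WT against 26574 and 20718 CPM in day 15 null mice, and 10 of the 11 were lower in WT without overlap (median log2 -0.76). Of the 8 smooth muscle genes 7 were lower in WT at day 15 without overlap (median -0.88), while 6 of the 8 fibroblast genes were higher (median 1.09). The shares of all genes without overlap there were 26.3% lower and 28.6% higher. The part of these shifts in tissue make-up in the T cell values was not tested.

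**Figure D5:**
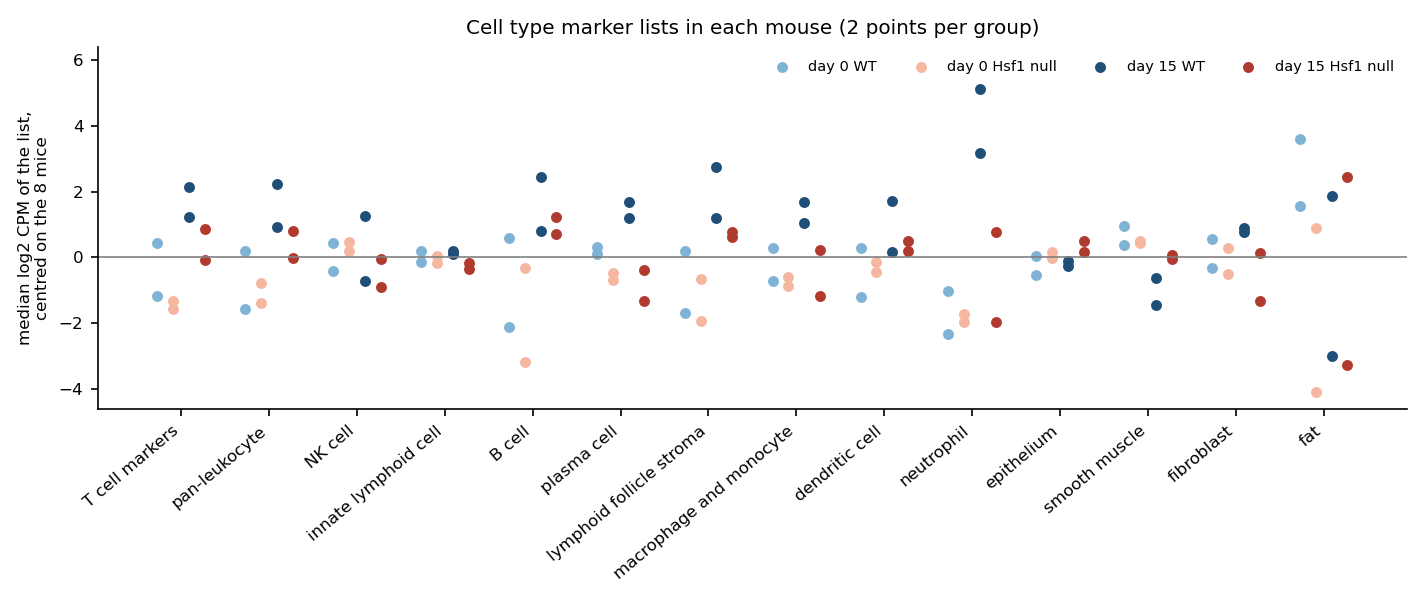
Median log2 CPM of each cell type list, centred on the mean of the 8 mice (y axis), with 2 points per group. The T cell and leukocyte lists are highest in the 2 day 15 WT mice, while in the B cell list the first of them, at 0.79, is below a day 15 null mouse at 1.22. The neutrophil list is highest in the day 15 WT mice, at 3.17 and 5.13, and the smooth muscle list is lowest there, at -0.64 and -1.45.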

How the data were processed

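Raw counts per gene of 8 mouse colon polyA libraries were deposited by the authors, who aligned the reads to mm10 with STAR; the counting program and annotation were not given in the sources used here. The deposited normalized signal equals those counts divided by DESeq2 size factors (largest difference 4.25e-05 after multiplying back) and was used only for that check. Molecular identifiers are not mentioned in the sources used here.

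Genes with a mean normalized count above 5 (14371 of 15859) were fitted in 1 model of the 4 groups with edgeR 4.0.16 in R 4.3.3 (TMM, quasi-likelihood test, Benjamini-Hochberg over all genes). Standard errors were the log2 fold change divided by the root of its F statistic. Library totals were 2553348 to 12440257 counts, and CPM divided by TMM-scaled totals. Alternatives were DESeq2 1.42.0, other size factors and filters, a replicate block, thinning, and libraries left out. The code was tested on simulated counts. Ratios used exact permutation. Coordinates and exon lengths came from GENCODE M21, promoters from RefSeq. The replicate numbers gave only 2 pairs per comparison and were not taken as pairing.

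The 8 markers, the other lists and the ratios were chosen with earlier results of these data known. All 8 markers were described in each mouse. From other lists, called genes were named, at most 6 per list by smallest p, and Cd8b1, Ifng, Il17a, Il7, Ncr1, Klrb1c, Klrk1, Klrd1, Tyrobp, Cxcl13, Tnfsf11, the 3 tested effector genes, Ltb and the untested receptor constant regions were named after their values were seen. Some genes that this rule would name are not reported here.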

Additional observations from a re-analysis of the deposited data

Results flagged for a closer look

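The Il7r levels of treated mice lay on opposite sides of the untreated ones in the 2 genotypes. Both treated WT mice lay above both untreated WT mice, and both treated null mice lay below both untreated null mice. The nearest mice were close, at 6.79 against 6.47 CPM in WT (78 and 66 counts) and 2.27 against 2.46 CPM in null (17 and 30 counts). The difference between the 2 log2 changes was 1.25. The edgeR interaction test did not call it (adjusted p = 0.694). Over the alternatives tried, that difference ran from 0.86 to 2.07 and its edgeR adjusted p from 0.392 to 1, and DESeq2 gave no adjusted p. No other T cell marker had this pattern.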

How the results depend on the processing

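DESeq2 in place of edgeR called 1 of the 8 markers between genotypes at day 15 and 5 in each comparison of days, against 0, 1 and 1. Only the samples compared, and thinning to the smallest library, each gave 2 in Hsf1 null mice. Leaving out both small libraries, chosen after seeing the data, gave 0 in each comparison of days; 1 mouse then stood for each untreated group and was assumed to vary like the others. Leaving out 1 mouse at a time gave 0 to 2 called in WT and 0 to 2 in null, and a WT median from 1.1 to 3.0. The WT count was 2 without the first day 0 WT (Cd5 added), first day 15 WT (Cd3g) or first day 15 null mouse (Cd4), and the null count was 2 without either day 0 WT mouse (Cd5). The replicate block changed no call among the markers (Cd3e log2 2.53 in WT, adjusted p 0.0337, and 2.80 in null, 0.025); correlations of same-numbered deviations were -0.27 to 0.13. A block with the day 0 WT numbers exchanged, chosen after seeing the data, called 3 markers between genotypes at day 15 and 4 in each comparison of days. Signs turned for Cd5 at day 15 (-0.06 thinned; -0.56 to 0.74 with 1 mouse left out) and at day 0, with 1 mouse left out, for Cd3d (-0.76 to 1.76), Cd4 (-0.01 to 1.41) and Cd5 (-6.34 to 1.98, its lowest set by a group at 0 counts and no bound). All genes called at day 15 between genotypes were 455 in the model reported, 1209 by DESeq2, 1314 with exchanged numbers, 6 with only the samples compared and 18 without both small libraries, and 12 to 873 with 1 mouse left out. In the same order they were 1112 for the days in WT, with 1739, 1856, 950 and 4 and 92 to 1336, and 1692 in null, with 2205, 2296, 1380 and 0 and 0 to 1891. At day 0 they were 0, with 18 by DESeq2 and 0 to 17 with 1 mouse left out, and for the difference between genotypes 1, with 130 by DESeq2, 54 with exchanged numbers, 0 without both small libraries and 0 to 50 with 1 mouse left out. The other alternatives kept the counts of called markers. The causes were not tested. In the smallest library 1 count stood for 0.397 CPM.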
